A study of Rattus norvegicus with 31 samples.

Results

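Acute phase proteins are plasma proteins whose genes are transcribed in hepatocytes, and 10 of them were followed here: C-reactive protein (Crp), haptoglobin (Hp), hemopexin (Hpx), orosomucoid (Orm1), alpha-2-macroglobulin (A2m), the fibrinogen chains Fga, Fgb and Fgg, lipocalin 2 (Lcn2) and ceruloplasmin (Cp). The members were taken by gene symbol from the deposited tables of read counts and of normalized counts. Of the 10 symbols, 9 had a row in both tables and all 9 passed the filter on low counts, among 26312 genes in the count table and 19904 genes tested. Fga was not analysed here.

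The RNA came from liver pieces of 31 young adult female Wistar rats (Crl:WI) dosed daily by oral gavage for 28 days. The 8 control rats received only the vehicle, aqueous carboxymethyl-cellulose, in which all compounds were suspended. Daily doses in mg/kg body weight were 108 for thiacloprid (THI, 4 rats), 93 for imazalil (IMZ, 4 rats) and 288 for clothianidin (CTD, 3 rats). In the 3 binary mixtures (4 rats per mixture) they were 54 and 46 for the pair THI + IMZ, 54 and 134 for the pair THI + CTD, and 46 and 135 for the pair IMZ + CTD, in the order of the names. THI and CTD are neonicotinoid insecticides and IMZ is an azole fungicide. Per the study's methods, at least 1 animal of the CTD dose group was killed in moribund condition. The doses of THI, IMZ and CTD differed, so their values are given side by side. Each rat was an independent biological replicate.

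In the acute phase response, cytokines released by macrophages, above all interleukin 6 (IL-6), reach hepatocytes, where the IL-6 receptor activates the transcription factor STAT3 through Janus kinases. Interleukin 1 and tumor necrosis factor act through NF-kappaB, and C/EBP factors and glucocorticoids add to the response. Positive acute phase proteins then rise in plasma and negative ones, such as albumin, fall. In rats A2m and Orm1 are strongly induced reactants, whereas Crp is made at a high level without inflammation and responds only weakly. Hp and Hpx scavenge free hemoglobin and heme, Cp carries copper and oxidizes iron, fibrinogen is the clotting substrate and Lcn2 binds bacterial siderophores.

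The libraries held between 31.8 M and 101 M counts (median 41.0 M), and all within-group pairs of libraries differed by more than sampling noise. The 8 hepatocyte markers summed to between 163447 and 251884 CPM (read counts scaled to a library of 1 M) in every rat, and the 3 CTD rats (191137 to 210506 CPM) lay within the range of the controls (187430 to 251054 CPM). The 11 neutrophil markers tested summed to between 0.154 and 1.05 CPM, with 1 to 5 of them at 0 in all rats of a group. RNA of liver pieces is a mixture, so fewer cells of a type and less RNA per cell cannot be told apart.

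Promoter sequences are shown for Fgb and Fgg, which varied together among rats, for Hpx, which carried the treatment difference, and for Crp, whose group means were highest in CTD and IMZ + CTD. They are the 250 bases before the transcription start in RefSeq on GRCr8, another build than the Rnor_5.0 to which the reads were mapped, and 8 of the 10 members have an entry there. Each is written 5′ to 3′ on the strand of the gene, and capitals mark the 6 bases CTGGGA, the core of IL-6 response elements in fibrinogen genes, or TCCCAG, the same bases on the opposite strand.
Fgb (chr2:170700876-170701125, minus strand): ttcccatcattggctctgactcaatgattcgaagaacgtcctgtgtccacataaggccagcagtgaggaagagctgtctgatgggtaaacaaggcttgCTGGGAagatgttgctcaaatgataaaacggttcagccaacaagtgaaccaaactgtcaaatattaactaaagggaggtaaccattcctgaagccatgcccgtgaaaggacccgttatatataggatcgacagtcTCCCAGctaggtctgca
Fgg (chr2:170652833-170653082, plus strand): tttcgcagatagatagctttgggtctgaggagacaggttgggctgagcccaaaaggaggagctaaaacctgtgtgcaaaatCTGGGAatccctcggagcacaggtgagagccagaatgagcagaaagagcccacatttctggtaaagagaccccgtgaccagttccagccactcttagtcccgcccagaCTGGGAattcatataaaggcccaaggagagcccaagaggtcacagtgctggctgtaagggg
Hpx (chr1:169352156-169352405, minus strand): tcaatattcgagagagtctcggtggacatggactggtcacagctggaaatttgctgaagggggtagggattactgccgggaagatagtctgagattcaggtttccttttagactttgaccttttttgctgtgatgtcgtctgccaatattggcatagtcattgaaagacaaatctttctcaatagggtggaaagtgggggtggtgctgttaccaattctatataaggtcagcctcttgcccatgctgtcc
Crp (chr13:87693812-87694061, plus strand): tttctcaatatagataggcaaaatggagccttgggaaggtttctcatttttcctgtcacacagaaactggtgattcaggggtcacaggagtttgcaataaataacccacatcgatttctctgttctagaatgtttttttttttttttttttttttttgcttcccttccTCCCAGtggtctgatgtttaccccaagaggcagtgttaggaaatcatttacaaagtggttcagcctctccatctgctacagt

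Both fibrinogen windows held this core 2 times, in Fgb from 152 to 147 and, on the opposite strand, from 17 to 12 bases before the start, and in Fgg from 169 to 164 and from 61 to 56 bases before it. The Crp window held it once, on the opposite strand, from 82 to 77 bases before the start. It was found in 5 of the 8 members with a window (Crp, Fga, Fgb, Fgg and Lcn2), and in 25.7% of the 33469 promoter windows of the same length. The STAT dimer pattern TTCNNNGAA, which reads the same on both strands, was present for Fga and Fgb and in 7.67% of all windows. The C/EBP pattern TTNNGNAAT, searched on both strands, was present for Crp, Orm1 and Fgb and in 10.9% of all windows. No match overlapped another. The Hpx window held none of these 3 patterns, which says only that these letters are not in this window.

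Treatment of rats with the single compounds and mixtures was first compared with control for each member. The values below are CPM scaled by TMM, which compare a gene between rats and not one gene with another. Tests are edgeR quasi-likelihood tests with Benjamini-Hochberg adjustment over all 19904 genes, and a gene is called at an adjusted p under 0.05. Over the 6 comparisons with control, Hpx in CTD was the only member called. Of all genes, 0.543% were called with THI, 0.251% with IMZ, 12.7% with CTD, 1.18% with THI + IMZ, 4.39% with THI + CTD and 1.46% with IMZ + CTD, so that 1 of 9 members in CTD and 0 of 9 in the other treatments lay near these shares. Without adjustment, a p under 0.05 was seen for 0 members in THI, 3 in IMZ, 3 in CTD, 0 in THI + IMZ, 3 in THI + CTD and 1 in IMZ + CTD, against 8.68%, 8.08%, 25.2%, 11.1%, 17.6% and 12.8% of all genes. With the Wald test of DESeq2 the calls were 0, 0, 3, 0, 3 and 1 members in the same order. That test also called more genes in all, 1.41%, 1.06%, 19.7%, 3.26%, 9.82% and 3.91% of those it gave an adjusted p. The median log2 fold change of the 9 members was -0.04 in THI, -0.17 in IMZ, -0.24 in CTD, 0.01 in THI + IMZ, -0.27 in THI + CTD and 0.08 in IMZ + CTD, against -0.01, -0.02, -0.07, -0.02, -0.03 and -0.03 over all genes.

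**Figure D1:**
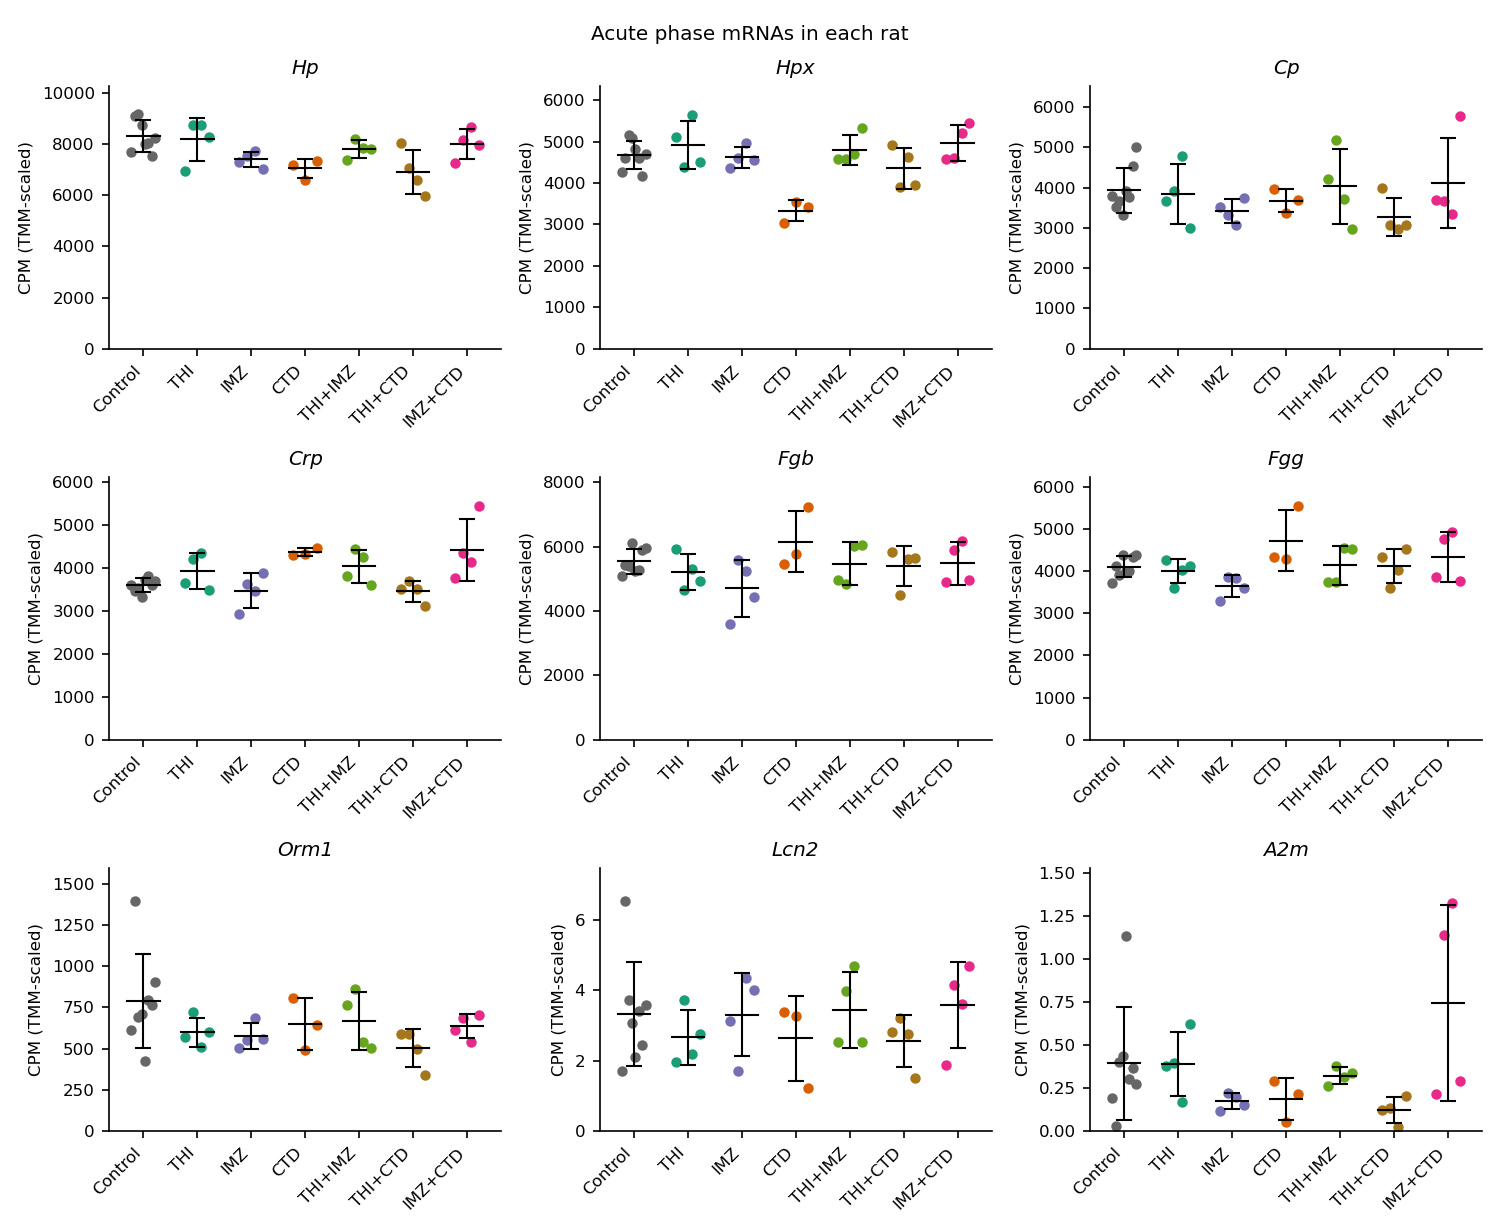
CPM (TMM-scaled, linear axis from 0) of the 9 members in each of the 31 rats, with 1 point per rat and the mean and SD of each group as bars. Hpx in the 3 CTD rats lies between 3041 and 3541 CPM, below every control, and A2m stays at or under 1.32 CPM in all rats.

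Hpx, the plasma protein that binds free heme and delivers it to the receptor Lrp1 for uptake, was lower in CTD. The 3 CTD rats had 3041, 3541 and 3426 CPM, and the 8 controls had 4168 to 5156 CPM with a median of 4662. All 3 CTD rats lay below all 8 controls, as did 5.48% of all genes in this comparison. The level in CTD was 0.713 of control (95% interval 0.621 to 0.820), a log2 fold change of -0.49 ± 0.098 (SE) with an adjusted p of 0.000849 in edgeR, while 6.03% of all genes were called lower. Hpx was also called in CTD under each of the 19 other settings, with log2 fold changes from -0.53 to -0.42. Beside it, 2 of the 8 hepatocyte markers were called lower in CTD, Tat at -0.93 ± 0.25 and Apoa2 at -0.36 ± 0.11 on the log2 scale, and their part in the result was not tested.

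In the other groups Hpx stayed in or near the range of the controls. THI rats had 5115, 4383, 5635 and 4514 CPM, IMZ rats 4367, 4603, 4975 and 4545 CPM, and THI + IMZ rats 4569, 4568, 4704 and 5331 CPM. These 3 groups overlapped with the controls, and their log2 fold changes were 0.07 ± 0.086 in THI, -0.02 ± 0.087 in IMZ and 0.04 ± 0.086 in THI + IMZ. THI + CTD rats had 4909, 3906, 4626 and 3959 CPM, and IMZ + CTD rats had 4574, 4605, 5211 and 5450 CPM. Their log2 fold changes were -0.10 ± 0.087 (95% interval -0.28 to 0.07) and 0.08 ± 0.086 (-0.09 to 0.26), and neither was called. In the order of group means Hpx ran from CTD (3336 ± 262 CPM, SD, n = 3) through THI + CTD (4350 ± 496, n = 4), IMZ (4623 ± 256, n = 4), control (4677 ± 348, n = 8), THI + IMZ (4793 ± 364, n = 4) and THI (4912 ± 578, n = 4) to IMZ + CTD (4960 ± 439, n = 4). Only the first step of this order separated neighboring groups without overlap of rats.

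Hp, which binds free hemoglobin so that macrophages can take it up through the receptor Cd163, had its lowest group means in THI + CTD and CTD. The CTD rats had 7184, 6617 and 7359 CPM, all below the 8 controls (7544 to 9185 CPM, median 8163). Of all genes, 5.48% lay below all controls in this comparison. The THI + CTD rats had 8047, 7063, 6604 and 5981 CPM, and the first of them lay within the controls. The log2 fold change was -0.24 ± 0.094 in CTD (95% interval -0.43 to -0.05, adjusted p = 0.0953 in edgeR) and -0.27 ± 0.085 in THI + CTD (-0.44 to -0.09, adjusted p = 0.0682), and neither was called. DESeq2 called both, with adjusted p of 0.0297 in CTD and 0.0085 in THI + CTD. Without the first THI + CTD rat the edgeR test called Hp in that mixture at a log2 fold change of -0.35 with an adjusted p of 0.0259. IMZ rats had 7319, 7527, 7738 and 7032 CPM, 1 of them within the range of the controls and 3 below it. The values of THI (6951 to 8768 CPM), THI + IMZ (7381 to 8210 CPM) and IMZ + CTD (7275 to 8667 CPM) lay across the range of the controls.

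Cp, a ferroxidase that carries most plasma copper, did not separate any group from control. Controls had 3317 to 4998 CPM with a median of 3772, and the group means ran from 3274 ± 472 CPM (SD, n = 4) in THI + CTD to 4123 ± 1115 CPM (n = 4) in IMZ + CTD. The IMZ + CTD mean rested on 1 rat at 5779 CPM, the other three having 3681, 3675 and 3354 CPM. In THI + CTD, 1 rat had 3979 CPM and the others 3072, 2976 and 3068 CPM. The log2 fold changes ran from -0.27 ± 0.14 in THI + CTD (95% interval -0.56 to 0.03) to 0.07 ± 0.14 in IMZ + CTD (-0.22 to 0.36). CTD rats had 3962, 3377 and 3687 CPM, all within the range of the controls.

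Crp, a pentraxin that binds phosphocholine on microbes and damaged cells, had its highest group means in CTD and IMZ + CTD. The CTD rats had 4285, 4327 and 4465 CPM and lay above all 8 controls (3318 to 3816 CPM, median 3596), as did 5.33% of all genes. IMZ + CTD rats had 3757, 4353, 4132 and 5428 CPM, and 1 of the 4 lay within the controls. The log2 fold change was 0.28 ± 0.099 in CTD (95% interval 0.08 to 0.48, adjusted p = 0.0589 in edgeR) and 0.30 ± 0.090 in IMZ + CTD (0.12 to 0.48, adjusted p = 0.0932), so Crp was not called in either. It was called in CTD by DESeq2 (adjusted p = 0.0209), with the expression filter of edgeR (0.0326) and in a fit of the CTD and control rats alone (0.0342). In IMZ + CTD it was called by DESeq2 (0.0203) and, in edgeR, without the first rat of that group (0.0334). THI + CTD rats had 3496, 3694, 3498 and 3105 CPM, all below the CTD rats and, but for one, within the range of the controls.
THI rats (3483 to 4340 CPM), IMZ rats (2912 to 3869 CPM) and THI + IMZ rats (3595 to 4444 CPM) overlapped with the controls.

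Fgb and Fgg encode the beta and gamma chains of fibrinogen, which liver cells assemble with the alpha chain into 1 secreted protein. Neither chain was called in any treatment. Fgb had 5082 to 6100 CPM in the controls with a median of 5402, and 5462, 5771 and 7240 CPM in the CTD rats. Fgg had 3719 to 4389 CPM in the controls with a median of 4060, and 4346, 4278 and 5552 CPM in the CTD rats. For both chains the third CTD rat lay above every control, and the other two lay within their range. The log2 fold change in CTD was 0.15 ± 0.12 for Fgb (95% interval -0.09 to 0.40) and 0.20 ± 0.10 for Fgg (-0.00 to 0.41), with adjusted p of 0.465 and 0.208 in edgeR.

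IMZ had the lowest mean of both chains. Fgb was at 3597, 5583, 5238 and 4433 CPM and Fgg at 3285, 3854, 3840 and 3611 CPM in the 4 IMZ rats. For each chain 2 of these rats lay within the controls, and the log2 fold changes of -0.23 ± 0.11 for Fgb and -0.17 ± 0.093 for Fgg had adjusted p of 0.594 and 0.671 in edgeR. The log2 fold changes in the remaining 4 treatments lay between -0.09 and -0.02 for Fgb and between -0.04 and 0.08 for Fgg.

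Orm1, an acidic glycoprotein that binds drugs and lipids in plasma, varied widely among controls. The 8 controls ran from 423 to 1400 CPM with a median of 738, a CV of 36.1%, so that 2 rats of this group differed by a factor of 3.31. THI + CTD rats had 588, 590, 497 and 339 CPM, and the lowest of these lay below all controls. The log2 fold change in THI + CTD was -0.65 ± 0.21 (95% interval -1.07 to -0.23) with an adjusted p of 0.0683 in edgeR. It was called by DESeq2 (adjusted p = 0.0202) and, in edgeR, without the fifth control (-0.74, adjusted p = 0.0218), the control with the lowest Orm1. IMZ rats had 506, 550, 686 and 561 CPM and CTD rats 806, 489 and 646 CPM, at log2 fold changes of -0.45 ± 0.20 and -0.29 ± 0.23. All 6 treatments had a lower mean than control, with log2 fold changes from -0.65 to -0.24, and the 6 comparisons share the same 8 controls.

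Lcn2, which withholds iron from bacteria and is among the most inducible liver transcripts in inflammation, was at a few CPM in every rat. Counts ran from 40 to 226 per library. Controls had 1.71 to 6.54 CPM with a median of 3.24, and the highest value was that of the second control, which also had the highest Orm1. CTD rats had 3.38, 3.28 and 1.23 CPM and THI + CTD rats 2.82, 3.21, 2.75 and 1.49 CPM. In each of these 2 groups 1 rat lay below the controls. The log2 fold changes of the 6 treatments ran from -0.35 ± 0.31 in THI + CTD (95% interval -0.99 to 0.29) to 0.13 ± 0.31 in IMZ + CTD (-0.50 to 0.76), and all 6 intervals held 0.

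A2m, the broad protease inhibitor of plasma, was at or near the limit of detection. Counts ran from 1 to 93 per library with a median of 11, and 28 of the 31 rats had less than 1 CPM. Controls had 0.0302 to 1.13 CPM with a median of 0.335, and the highest was the fifth control. IMZ + CTD rats had 0.215, 1.14, 1.32 and 0.289 CPM, so that 2 of them lay just above or above the highest control. THI + CTD rats had 0.121, 0.134, 0.0213 and 0.202 CPM, and IMZ rats 0.116, 0.221, 0.196 and 0.151 CPM, all within or below the range of the controls. The log2 fold change was -1.74 ± 0.62 in THI + CTD (adjusted p = 0.112 in edgeR, 0.0467 in DESeq2), -1.23 ± 0.59 in IMZ and 0.89 ± 0.51 in IMZ + CTD.

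**Figure D2:**
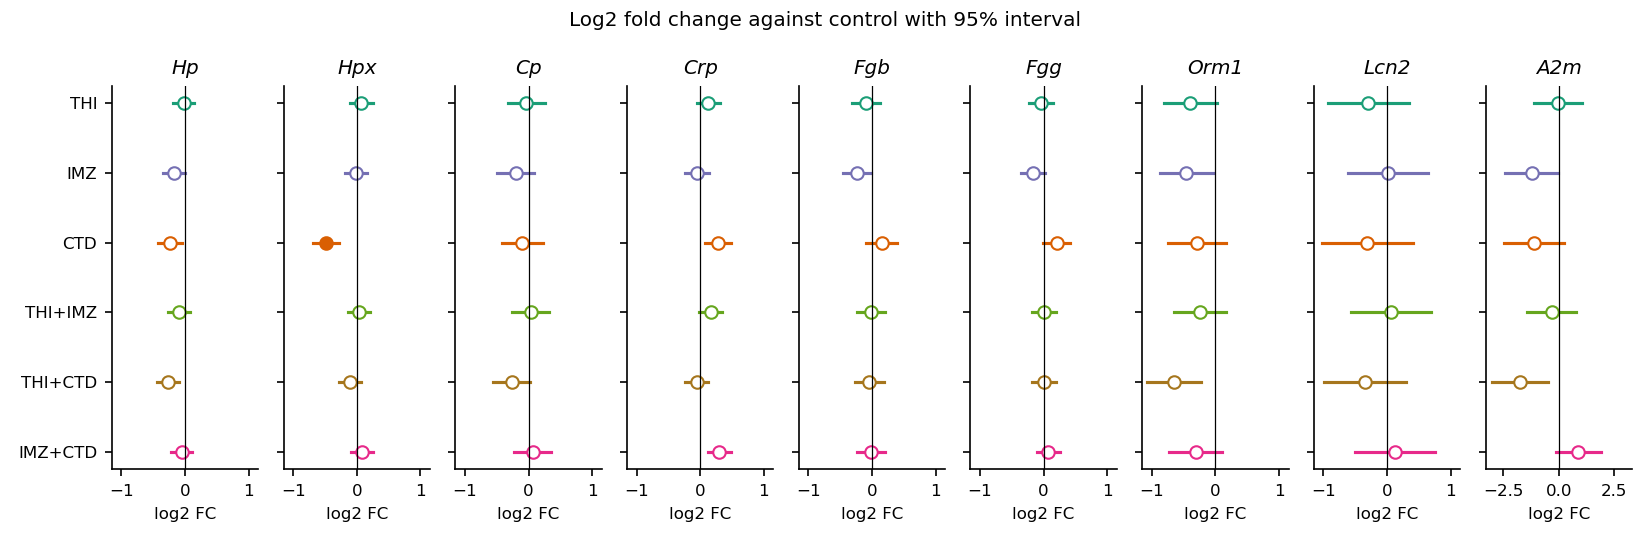
Log2 fold change against control of each member in the 6 treatments, with the 95% interval of the edgeR fit as a line and the points filled where the adjusted p was under 0.05 (A2m has a wider axis). The only filled point is Hpx in CTD at -0.49, and the intervals of Hp and Crp in CTD lie on opposite sides of 0.

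The spread among rats of a group differed between the members. The within-group SD of log2 CPM was 0.12 for Hp and Hpx, 0.14 for Crp and Fgg, 0.18 for Fgb, 0.24 for Cp, 0.36 for Orm1, 0.56 for Lcn2 and 0.89 for A2m. Differences between groups held 67.1% of the variance of Hpx over the 31 rats, 54.7% of that of Crp and 48.3% of that of Hp, but 11.4% of that of Lcn2. The share was 38.1% for A2m, 35.4% for Fgg, 29.3% for Fgb, 26.5% for Orm1 and 19.5% for Cp.

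The mixtures held about 0.5 of the single dose of THI or IMZ and 0.47 of that of CTD. Each mixture was therefore compared with the dose-weighted sum of the log2 fold changes of its compounds, and the CTD mixtures also with CTD at its full single dose. No member was called against the dose-weighted sum by edgeR, where 0.0151% of all genes were called in THI + IMZ, 0.286% in THI + CTD and 1.16% in IMZ + CTD. An unadjusted p under 0.05 was seen for 0, 1 and 3 members in this order, and for 6.46%, 9.66% and 14.3% of all genes. DESeq2 called 0, 0 and 1 members, and 0.393%, 1.34% and 5.47% of the genes it gave an adjusted p. In IMZ + CTD, Hpx lay above the sum by 0.32 ± 0.087 (log2, 95% interval 0.14 to 0.50, adjusted p = 0.0561 in edgeR). It was called by DESeq2 (0.00509), with the expression filter of edgeR (0.0334) and in a fit of only the groups compared.
A2m in IMZ + CTD lay above the sum by 2.03 ± 0.55 (log2, adjusted p = 0.0561 in edgeR), at the low counts given above. It was called with the expression filter (0.0435) and when the second control, the fifth control or the first IMZ + CTD rat was left out. Crp lay below the sum in THI + CTD by 0.25 on the log2 scale (interval of the difference -0.44 to -0.06, adjusted p = 0.343) and above it in IMZ + CTD by 0.19 ± 0.091 (0.01 to 0.38, adjusted p = 0.327). The median difference of the 9 members was 0.14 in THI + IMZ, 0.19 in IMZ + CTD and -0.14 in THI + CTD. Over all genes the medians were 0.00, -0.02 and -0.01 in the same order. The members ran from 0.005 to 0.31, from 0.03 to 2.03 and from -1.20 to 0.09 in this order. The 3 sums share the single compounds and the controls.

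**Figure D3:**
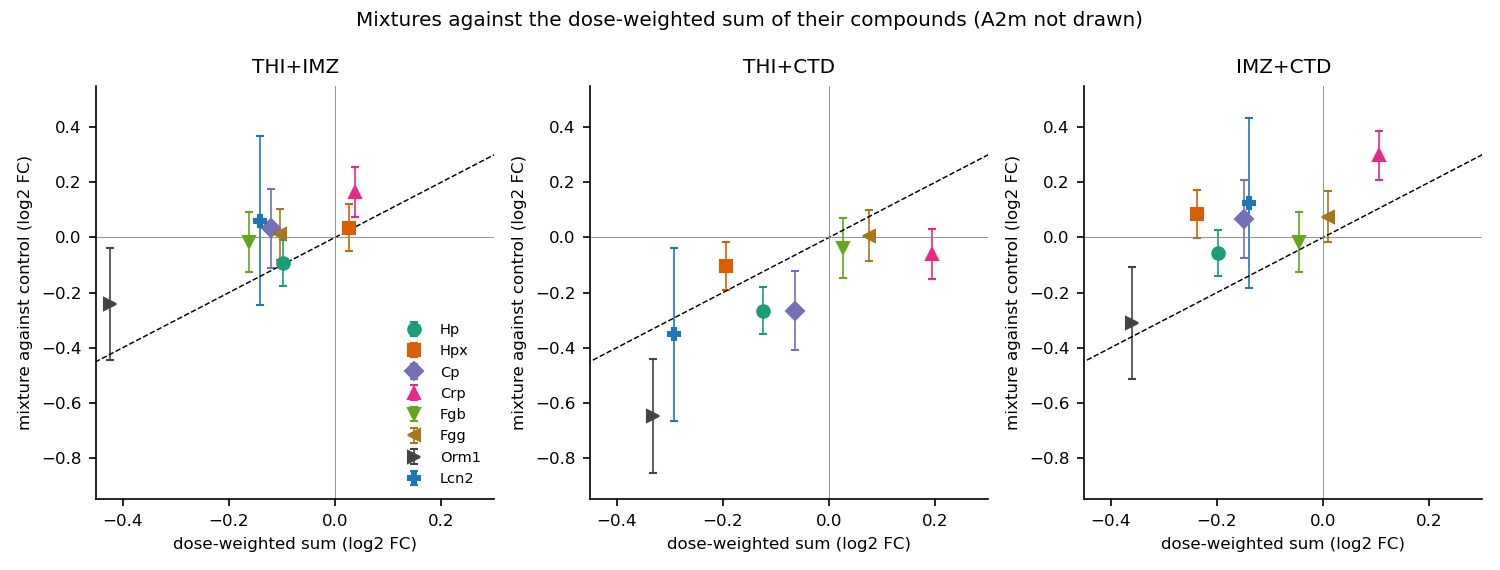
Log2 fold change of each mixture against control (vertical axis, bars are the SE) over the dose-weighted sum of its 2 compounds (horizontal axis) for 8 members, with the line of equality dashed and A2m left out for scale. Hpx and Crp lie above the line in IMZ + CTD, and Crp lies below it in THI + CTD.

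Against CTD alone, Hpx was higher in IMZ + CTD. All 4 IMZ + CTD rats (4574 to 5450 CPM) lay above the 3 CTD rats (3041 to 3541 CPM), as did 7.02% of all genes. The difference was 0.57 ± 0.11 (log2, 95% interval 0.35 to 0.80, adjusted p = 0.00152 in edgeR), a ratio of 1.49, and it was called under each of the 15 other settings. The share of all genes called in this comparison was 5.53% (2.83% higher), and 1 of 9 members was called. An unadjusted p under 0.05 was seen for 2 members and 18.7% of all genes. DESeq2 called 2 members and 11.7% of its genes. The second was A2m, at a log2 fold change of 2.01 and an adjusted p of 0.04998, just under the threshold, against 0.109 in edgeR. In THI + CTD, all 4 rats (3906 to 4909 CPM) also lay above the CTD rats, as did 5.74% of all genes, and the difference of 0.38 ± 0.11 (0.16 to 0.60) had an adjusted p of 0.0506 in edgeR. Of 15 other settings 7 called it, among them DESeq2 (0.00607). Here 2.67% of all genes and 0 of 9 members were called, with 2 members and 15.2% of all genes at an unadjusted p under 0.05. DESeq2 called 2 members and 7.02% of its genes.
The second member that DESeq2 called in THI + CTD was Crp, lower in all 4 THI + CTD rats than in the CTD rats (as were 4.7% of all genes) by 0.34 on the log2 scale (interval of the difference -0.57 to -0.11, adjusted p = 0.108 in edgeR and 0.0281 in DESeq2). The CTD dose of the mixtures was lower than that of CTD alone, so the added compound and the lower dose cannot be told apart in these 2 comparisons.

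Members were then compared among rats of the same group. For each of the 36 pairs of members the correlation of the deviations from the group means of log2 CPM was computed over 31 rats, and tested by 100000 permutations within groups (two-sided, adjusted over the 36 pairs). Fgb and Fgg, the 2 fibrinogen chains, varied together, with a Pearson r of 0.89 and a Spearman rho of 0.90. The permutation p of both was 1e-05, the smallest it can be, and the adjusted p was 0.00036. Without the 2 rats farthest from the median of Fgb, r was 0.93. This pair was past the threshold under all 37 other settings.

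Crp and Cp had an r of 0.64 (permutation p = 0.00255, adjusted p = 0.0459) and a rho of 0.58 (adjusted p = 0.0916), with an r of 0.62 without the 2 rats farthest from the median of Crp. Of the 31 settings that left out 1 rat, 16 kept this pair past the threshold. Orm1 and Lcn2 had an r of 0.56 (permutation p = 0.00402, adjusted p = 0.0482) and a rho of 0.50 (adjusted p = 0.126). It fell to 0.42 without the 2 rats farthest from the median of Orm1, and 5 of the 31 settings that left out 1 rat kept the pair past the threshold. Without the second control, the rat highest in both, neither of these 2 pairs was past it.

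**Figure D4:**
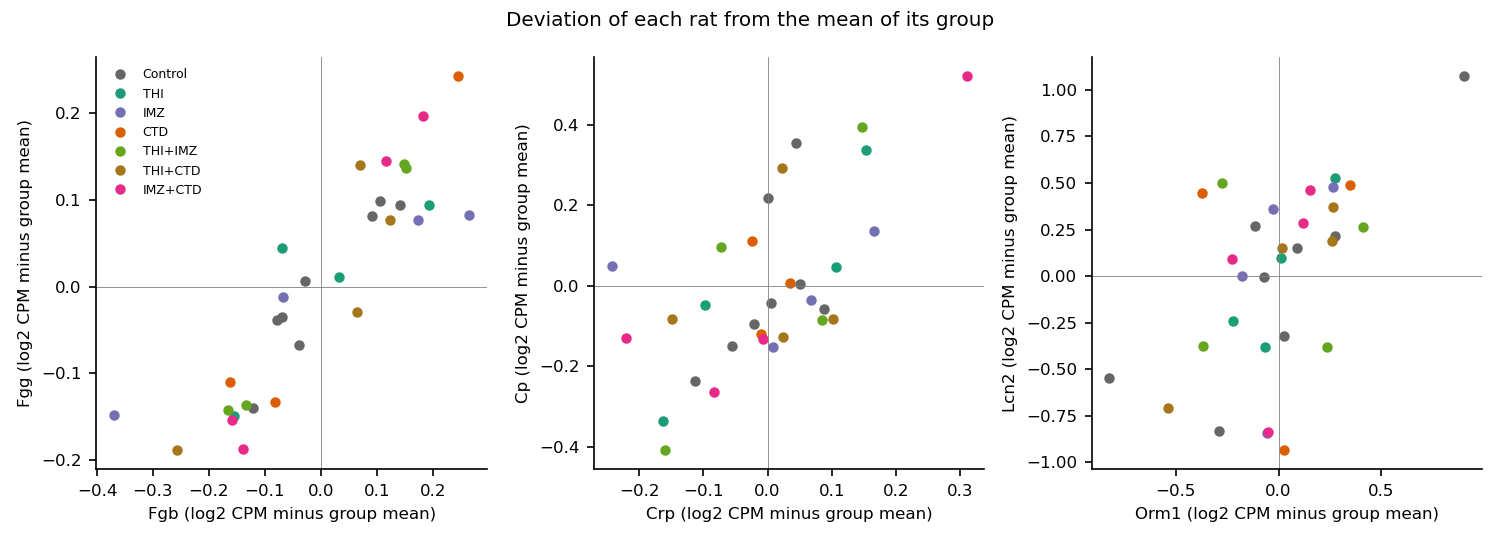
Deviation of each of the 31 rats from its group mean in log2 CPM, 1 point per rat and 1 color per group, for Fgb and Fgg, Crp and Cp, and Orm1 and Lcn2. Fgb and Fgg rise together in all groups (r = 0.89), and 1 control stands apart at the top right of the plot of Orm1 and Lcn2.

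Genes around the members were taken as 4 lists. Of 28 other positive acute phase proteins, 23 were tested. In CTD 7 fell and 0 rose, in THI + CTD 3 fell and 0 rose, in IMZ and IMZ + CTD 1 fell and 0 rose, and in THI and THI + IMZ none was called. Of all genes, 6.03% were called lower in CTD, 1.71% in THI + CTD, 0.0603% in IMZ and 0.452% in IMZ + CTD. The median of the list in CTD was -0.31, against -0.07 over all genes. Serping1, the C1 inhibitor of complement and kallikrein, fell most clearly, at 180, 148 and 146 CPM in the CTD rats against 371 to 478 CPM in the controls, a log2 fold change of -1.45 ± 0.10 with an adjusted p of 2.88e-11 in edgeR. The other rats, between 341 and 453 CPM, overlapped with the controls or lay just below them.

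The metallothioneins Mt2A and Mt1a, which bind zinc and copper, fell by 3.03 ± 0.75 and 2.37 ± 0.59 on the log2 scale in CTD (adjusted p = 0.00618 and 0.00667). Mt2A was at 7.18, 20.3 and 4.86 CPM in the CTD rats and at 27.8 to 246 CPM in the controls. Its mean was 88.4 CPM in control and 10.8 CPM in CTD. Every other treatment had a mean between these, from 17.5 CPM (IMZ) to 52.4 CPM (IMZ + CTD), without a call. Both genes lost the CTD call without the first CTD rat (adjusted p = 0.0518 and 0.0588). The same held with the replicate number as a block (0.0798 and 0.127). The study used uniquely mapped reads, and how many reads fit both of these related genes was not examined. Itih3, a heavy chain that binds hyaluronan, fell in 4 treatments: all IMZ rats (4239 to 4669 CPM), CTD rats (3632 to 4321 CPM), THI + CTD rats (4013 to 4485 CPM) and IMZ + CTD rats (4182 to 4857 CPM) lay below the controls (5238 to 6102 CPM), as did 0.553%, 5.48%, 1.82% and 1.01% of all genes in these comparisons. The log2 fold changes were -0.34 ± 0.074 in IMZ, -0.51 ± 0.083 in CTD, -0.41 ± 0.074 in THI + CTD and -0.31 ± 0.074 in IMZ + CTD, with adjusted p of 0.0343, 6.12e-05, 0.00105 and 0.0218 in edgeR. The calls in IMZ and IMZ + CTD were lost when single rats were left out, and with the replicate number as a block. Itih3 was at 4496 to 5020 CPM in the THI rats and at 4263 to 5185 CPM in the THI + IMZ rats. It was not called in these groups.
In THI + CTD, Serpina1, the inhibitor of neutrophil elastase, fell by 0.43 ± 0.084 on the log2 scale (5802 to 6913 CPM against 7764 to 9469 CPM in the controls, adjusted p = 0.00228). Apcs, serum amyloid P and like Crp a pentraxin, fell by 0.33 ± 0.098 (adjusted p = 0.0457), a call kept under 8 of 20 other settings.

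Of 14 negative acute phase proteins, 13 were tested. In CTD, where 6.03% of all genes were called lower, 3 fell and 0 rose. F12, coagulation factor XII, was at 730 to 784 CPM in the CTD rats and at 1038 to 1175 CPM in the controls (log2 fold change -0.55 ± 0.084, adjusted p = 2.78e-05 in edgeR). Mug1, a murinoglobulin with a near-identical neighbor, and Rbp4, the carrier of retinol, fell by 0.49 ± 0.14 and 0.34 ± 0.090. Both lost the call without the first CTD rat, and Mug1 also without the second (adjusted p = 0.0593 in edgeR). In THI + IMZ, where 0.849% of all genes were called higher, 1 rose and 0 fell: Apoa1, the main protein of high density lipoprotein, at 1937, 1522, 1020 and 811 CPM against 541 to 882 CPM in the controls (0.85 ± 0.18, adjusted p = 0.0121), a call lost without the first or the second THI + IMZ rat. None was called in the other 4 treatments.

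The signalling list held 24 genes. Shares of all genes called were 6.03% lower in CTD, 1.71% lower in THI + CTD and 0.849% higher in THI + IMZ. In CTD 3 fell and 0 rose, among them Nfkbia, the inhibitor of NF-kappaB, by 0.62 ± 0.15 and Tyk2, a Janus kinase, by 0.48 ± 0.087 on the log2 scale. Tyk2 kept its call under every other setting. Nfkbia lost it without the second CTD rat. In THI + IMZ, Socs3, the feedback inhibitor of IL-6 signalling that STAT3 induces, rose to 10.8, 3.79, 24.2 and 40.7 CPM, against 3.53 to 9.76 CPM in the controls (1.59 ± 0.40, adjusted p = 0.0374). 1 of the 4 rats lay within the controls. The call held under 11 of 20 other settings. It was lost in a fit of only the groups compared (adjusted p = 0.0963), with the replicate number as a block (0.245), without any 1 of 5 controls (0.0583 to 0.0787), without the third THI + IMZ rat (0.125) and without the fourth, where the log2 fold change was 0.97 (0.329). In THI + CTD, Il6r, the IL-6 receptor, fell by 0.42 ± 0.11 (69.1 to 97.9 CPM against 100.1 to 146 CPM, adjusted p = 0.0268), a call lost without the fifth control or without 1 of 2 THI + CTD rats. The cytokines themselves, named here after their values were seen, were scarce: Il6 had 0 to 4 counts and Tnf 3 to 31 counts per library, and Il1b 60 to 352 counts, and none of the 3 was called.

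The list of uptake and of iron or heme handling held 9 genes, of which 2 fell in CTD and 2 in THI + CTD. For this list and the markers below, the shares of all genes called lower were 6.03% in CTD and 1.71% in THI + CTD. Lrp1, the receptor for the complex of Hpx with heme, was at 1029, 780 and 980 CPM in the CTD rats and at 1505 to 2557 CPM in the controls (log2 fold change -1.11 ± 0.16, adjusted p = 1.9e-05 in edgeR). It was at 1217, 1359, 1192 and 1244 CPM in the THI + CTD rats (-0.68 ± 0.14, adjusted p = 0.00423). Cd163, the macrophage receptor for the complex of Hp with hemoglobin, fell in THI + CTD by 0.50 ± 0.14 (adjusted p = 0.0279), and Slc40a1, the iron exporter ferroportin, fell in CTD by 0.54 ± 0.15 (adjusted p = 0.0147). The last 2 calls were lost when single rats were left out. With the replicate number as a block, Lrp1 and Cd163 lost their calls in THI + CTD (adjusted p = 0.103 and 0.167 in edgeR). Of the 11 Kupffer cell and macrophage markers, among them Cd163, 5 fell and 0 rose in CTD and in THI + CTD. Their sum was 459 to 710 CPM in CTD and 483 to 639 CPM in THI + CTD, against 579 to 944 CPM in the controls. Of the 6 endothelial markers 2 fell in CTD and 1 in THI + CTD. The part of these markers in the values of Cd163, Slc40a1 and Lrp1 was not tested.

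**Figure D5:**
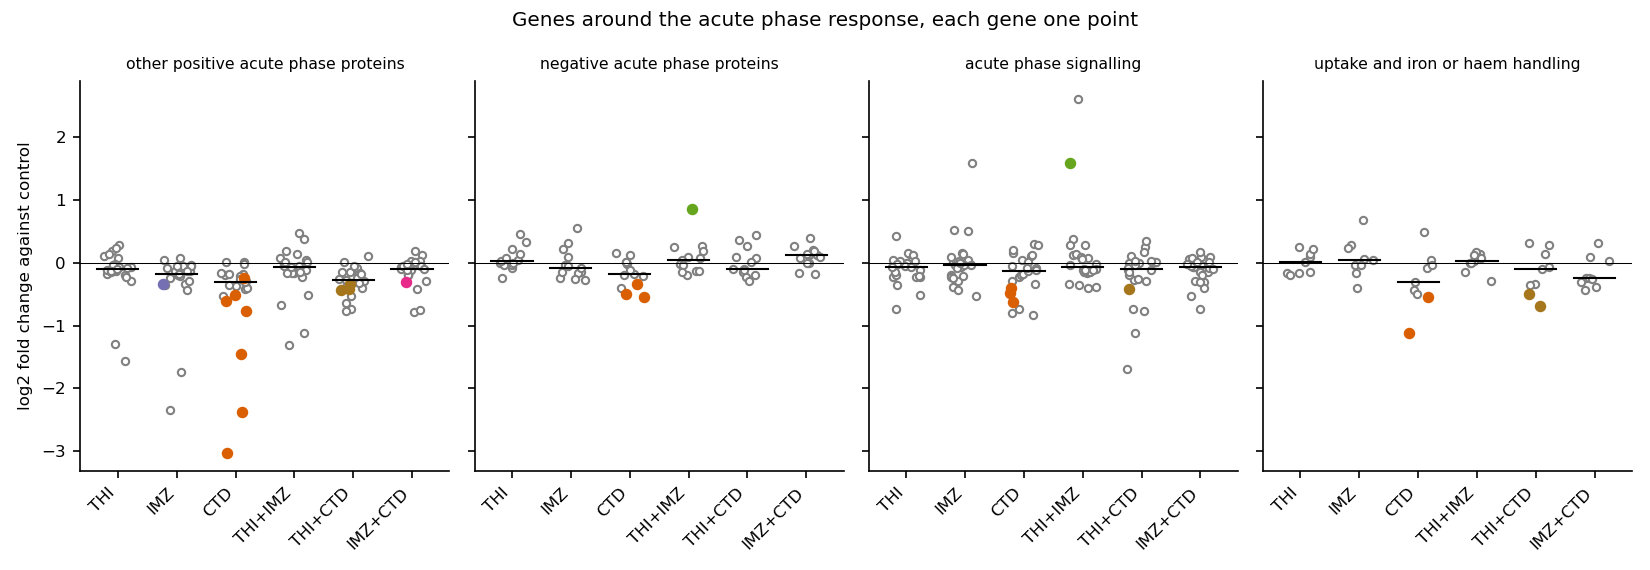
Log2 fold change against control of each gene of 4 lists in the 6 treatments, with 1 point per gene, filled where the adjusted p was under 0.05, and a bar at the median of the list. In the list of other positive acute phase proteins all 7 filled points of CTD lie below 0, and the highest open point of the signalling list is Il6 in THI + IMZ, at no more than 4 counts in any rat.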

How the data were processed

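RNA-Seq libraries of 31 rat livers in 7 groups were used. The authors prepared stranded total RNA libraries, trimmed adapters, checked quality with FastQC 0.11.5, aligned them to Rnor_5.0 with STAR 2.5.2b, which also gave the gene counts. The annotation release and the strand setting of the counting are not given in the sources used here. The deposited count table holds raw read counts for 26312 genes. Another deposited table gives a normalized signal for 19904 genes and was not tested. The authors used DESeq2 1.15.1 with its size factors. Within each library the normalized values equal the counts divided by 1 constant, to a relative deviation of at most 5.28e-15. The constants were not compared with size factors computed by DESeq2.

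All genes reaching a total of 2 counts over the libraries were fitted in edgeR 4.0.16 (R 4.3.3) with TMM, 1 mean per group and the older quasi-likelihood method. Benjamini-Hochberg adjustment covered the 19904 genes (threshold 0.05), and intervals are at 95%. Log2 CPM used a prior count of 2. DESeq2 1.42.0 gave an alternative Wald test, whose shares of genes called are over the genes with an adjusted p. Pairs of members were tested with numpy 2.4.6. The depth of the libraries was 31.8 M to 101 M counts.

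The members, lists and tests were chosen with earlier results of these data known. Named genes are the 10 members, at most 3 called genes with the largest change per list and comparison, the 2 genes whose pattern was most like that of a called member, and markers of other cell types beside a result. Symbols are those of the count table. Of the lists, Cfb, Saa4, Kng1, Kng2, Hamp2, A1i3, Cd79a and Acta2 were not analysed here, and Ftl1 and Adgre1 were read as Ftl and Emr1. The result of 1 single gene is not reported here. The alternatives were other size factors, DESeq2, 2 other filters, a replicate block, a fit restricted to the compared groups, thinned counts, exact dose ratios, Spearman's rho, another prior count, the newer quasi-likelihood method, and leaving out each rat in turn.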

Additional observations from a re-analysis of the deposited data

Results flagged for a closer look

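A sample was flagged where the gap between the highest or lowest rat of a group and its nearest neighbor was a larger part of the range of the group than Dixon's 95% critical value. Of the 54 sets of rats tested, 4 were flagged, and chance flags about 1 in 20. A2m in the fifth control was the highest of its group at 1.13 CPM, with a gap of 0.636 of the range. Lcn2 in the second control was the highest at 6.54 CPM, with a gap of 0.584 of the range. Cp in the first THI + CTD rat was the highest at 3979 CPM, with a gap of 0.904 of the range. Cp in the fourth IMZ + CTD rat was the highest at 5779 CPM, with a gap of 0.865 of the range.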

How the results depend on the processing

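Counts of members called stayed within 1.5 times the main count in 223 of 263 recomputed counts, pairs included. No log2 fold change of a called member lost its call or its sign, 28 of 2034 recomputed fold changes of members gained a call, and 62 of 409 of the named list genes lost one. With DESeq2 the count was 3 in CTD, 3 in THI + CTD and 1 in IMZ + CTD against control, 1 in IMZ + CTD against the dose-weighted sum, and 2 in each CTD mixture against CTD (19.7%, 9.82%, 3.91%, 5.47%, 7.02% and 11.7% of the genes it gave an adjusted p, THI + CTD before IMZ + CTD). With the expression filter of edgeR it was 2 in CTD, 1 in THI + CTD, 2 in IMZ + CTD against the sum and 1 in THI + CTD against CTD (20.3%, 7.73%, 2.82% and 5.08% of all genes tested). In a fit of only the groups compared it was 2 in CTD and 1 in IMZ + CTD against the sum (11.1% and 1.47%). Without a filter, with thinned counts or with the newer quasi-likelihood method, the last chosen after seeing the data, 1 member was called in THI + CTD against CTD (2.44%, 2.76% and 2.75%). The cause of these differences was not tested.

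Leaving out each rat in turn gave 1 to 1 calls in CTD and in IMZ + CTD against CTD, 0 to 1 in THI + CTD and IMZ + CTD against control, in IMZ + CTD against the sum and in THI + CTD against CTD, and 0 to 0 elsewhere. The pairs past the threshold numbered 3 in the main test, 1 to 4 when 1 rat was left out, 1 with Spearman's rho and 1 without control 2 and control 5, a setting chosen after seeing the data.

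The labels do not say what the replicate numbers stand for. Deviations of rats with the same number in different groups correlated with a median r of 0.02 (78 pairs, -0.27 to 0.42). For different numbers the median r was -0.009 (326 pairs, -0.42 to 0.43). With the replicate number as a block, 1 member was called in CTD, 1 in IMZ + CTD against CTD and 0 elsewhere (7.89% and 4.25% of all genes in the first 2), and 2 pairs were past the threshold. Among the list genes, Mug1 in CTD, Apoa1 in THI + IMZ, and Apcs and Il6r in THI + CTD also lost their calls with this block. A2m had 1 to 93 counts per library, and CTD had 3 rats.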

Other observations

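Among 10868 other genes with a mean log2 CPM above 0, Proc, the precursor of the anticoagulant protein C, and Cox4i1, a subunit of cytochrome c oxidase, had patterns over the 31 rats most like that of Hpx, with a root mean square difference of 0.12 in log2 CPM centred on the controls for both. Their log2 fold changes in CTD were -0.28 ± 0.083 for Proc (adjusted p = 0.022 in edgeR) and -0.42 ± 0.068 for Cox4i1 (adjusted p = 6.62e-05). Both genes were chosen by values that include the CTD rats, so their fall in CTD is no separate evidence.

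The cholangiocyte list (6 genes) and the neutrophil list (11 genes tested) had 0 genes called in the 6 treatments. The neutrophil markers summed to 0.605 to 0.834 CPM in IMZ, above the 0.217 to 0.532 CPM of the controls, with 4 of the markers at 0 in all IMZ rats. Of 9 T, B and NK cell markers 1 fell in THI + CTD, and of 7 stellate cell and fibroblast markers 1 rose and 1 fell in CTD and in THI + CTD. Among all genes 12.7% were called in CTD (6.03% lower) and 4.39% in THI + CTD (1.71% lower).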
